A study of Homo sapiens with 3 samples.

Results

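RNA contact sites of MATR3 (matrin 3, a nuclear protein that binds RNA) were examined in the transcripts of 42 DNA repair genes. The genes were taken by name from a list of 43 symbols that covers break signalling, homologous recombination, end joining, the Fanconi anaemia pathway, mismatch repair, helicases and ligation; MRE11 and its older symbol MRE11A are the same gene. Every deposited cluster annotated to a listed gene was used, which gave 814 of the 115227 clusters in all 3 libraries. A listed gene with no cluster was counted as 0. The clusters come from PAR-CLIP, a crosslinking and immunoprecipitation method in which cells take up a photoactivatable nucleoside. A crosslinked thiouridine is read as C, so T-to-C changes mark the contact sites of a protein. HAP1, a near-haploid human cell line derived from the KBM-7 chronic myeloid leukaemia line, was studied as purchased wild-type (WT) cells in 2 replicates, rep1 and rep2, and as a MATR3 knockout (KO) line in 1 library; no drug or DNA damage is recorded for either genotype. The KO is a single purchased line, and its 1 library gives no replicate spread. Complexes were recovered on anti-FLAG beads in all 3 libraries, although the labels record no FLAG tag in either genotype.

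DNA double-strand breaks are sensed by the MRE11-RAD50-NBN complex and signalled by the kinases ATM and ATR, which act through CHEK2 and CHEK1. The breaks are then repaired either by homologous recombination, which copies an intact sister with the help of BRCA1 and BRCA2, or by end joining, in which the Ku heterodimer of XRCC5 and XRCC6 loads the kinase PRKDC and the ligase LIG4. The Fanconi anaemia proteins act on DNA crosslinks, and the MSH proteins recognise mismatches. MATR3 is known to bind pyrimidine-rich RNA, mainly within introns, so a cluster in one of these genes is read as a contact of MATR3 with the transcript and measures neither the amount of the transcript nor its protein.

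The sequences of the clusters show what was bound. For each repair pathway the cluster pair that overlapped between the WT libraries and had the highest geometric mean of reads is shown, with the pair in XRCC5, which is among the 5 highest over all the repair genes. Each is written 5′ to 3′ on the RNA strand as deposited, with T for U, on hg38, and capitals mark runs of at least 5 C or T. All of these clusters are intronic and on the plus strand. The sequences of the pair in PRKDC, the highest in end joining, are not shown, and no pair was found in the ligation and single-strand break group.
BRCA2 at chr13:32320385-32320415, both WT libraries: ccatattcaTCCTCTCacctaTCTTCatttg
CHEK1 at chr11:125641591-125641629, both WT libraries: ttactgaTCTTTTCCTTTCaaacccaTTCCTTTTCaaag
XRCC5 at chr2:216176679-216176712, both WT libraries: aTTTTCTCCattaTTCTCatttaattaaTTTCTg
FANCI at chr15:89246320-89246352, WT rep1: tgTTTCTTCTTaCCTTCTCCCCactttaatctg
MSH3 at chr5:80712242-80712278, WT rep2: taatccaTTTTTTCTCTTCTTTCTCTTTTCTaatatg
BLM at chr15:90726256-90726286, WT rep2: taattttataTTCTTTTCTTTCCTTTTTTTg

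The longest pyrimidine runs among these sequences were 24 nt in MSH3 and 20 nt in BLM. The CHEK1 cluster held runs of up to 12 nt, the FANCI cluster 10 nt, XRCC5 8 nt and BRCA2 7 nt. The CHEK1 cluster had 139 reads in WT rep1 and 306 in WT rep2, with a T-to-C change in 65.5% and 72.5% of them. The BRCA2 pair had 68 and 36 reads (80.9% and 100% changed), the XRCC5 pair 99 and 180 (92.9% and 63.9%), and the FANCI pair 203 and 88 (63.9% and 85.2%). The MSH3 pair differed between the libraries: 97.3% of 37 reads carried a change in WT rep1, against 3.64% of 110 reads in WT rep2, where the cluster rests on 4 converted events.

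The KO library had 2 clusters in repair genes, and the cluster with the most reads of any repair gene was in WT rep1. These 3 are shown with the same marking; the KO clusters because no others were called in these genes in KO, and the FANCI cluster because of its reads, which was seen before it was chosen.
RAD51B at chr14:68600632-68600659, KO: TTCCTTTCatggcctgataaaacccaag
XRCC5 at chr2:216187576-216187606, KO: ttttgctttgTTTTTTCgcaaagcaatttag
FANCI at chr15:89246264-89246308, WT rep1: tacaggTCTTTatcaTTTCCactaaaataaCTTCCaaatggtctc

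The KO cluster in RAD51B had 261 reads, of which 0.766% carried a T-to-C change, from 2 converted events. The KO cluster in XRCC5 had 439 reads, of which 97.3% did. Both were intronic. The nearest WT cluster to the RAD51B cluster was 31793 nt away in WT rep1 and 47351 nt away in WT rep2. That to the XRCC5 cluster was 400 nt away in WT rep1, with 5 reads, and 344 nt away in WT rep2, with 11 reads. Thus neither KO cluster overlapped a WT cluster. Over protein-coding genes, only 6.22% of WT rep1 clusters overlapped one of WT rep2, and 20.1% did in the other direction. The share of all KO clusters that overlap a WT cluster was not counted. With 2 clusters, the lack of overlap therefore does not set these KO sites apart. The FANCI cluster had 805 reads of 56 distinct sequences, 69.6% with a change, and no cluster of WT rep2 overlapped it, although the FANCI pair shown above begins just downstream of its end.

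WT rep1 held 87230 clusters, WT rep2 27155 and KO 842. Repair genes held 610 of them in WT rep1, 202 in WT rep2 and 2 in KO, with 20022, 11603 and 700 reads. These are 0.699% of the clusters of WT rep1 (95% Wilson interval 0.646% to 0.757%) and 0.744% of those of WT rep2 (0.648% to 0.853%), with a WT mean of 0.722% ± 0.0315 (SD, n = 2). The KO share was 0.238% (0.0652% to 0.862%). At the WT shares a library of 842 clusters would hold 5.89 or 6.26 clusters in repair genes, against 2 found (exact Poisson interval 0.242 to 7.22), an interval that holds both values, so no difference in share was detected. MATR3, the gene knocked out in the KO line, had 53, 26 and 0 clusters in the same order. At 53 of 87230 or 26 of 27155 clusters, a library of 842 would hold few if any. The 0 in KO is therefore no check of the knockout. All intervals cover counting error only, because reads without molecular identifiers are not independent molecules.

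At least 1 cluster was found in 39 of the 42 genes (92.9%) in WT rep1 and in 30 (71.4%) in WT rep2. All 30 had clusters in WT rep1 too. Of 20056 RefSeq protein-coding genes, 41.3% had a cluster in WT rep1, 28.1% in WT rep2, 26.2% in both and 43.3% in either. In KO, 2 of the 42 genes had one, against 2.86% of protein-coding genes. Repair genes are long: their median RefSeq length was 79.2 kb, against 24.1 kb for protein-coding genes. Genes found in WT rep1 only were CHEK2, FANCA, FANCM, LIG1, MSH6, RAD51C, RAD51D, RNF168 and RNF8, each with 5 clusters or fewer. LIG4, MDC1 and PMS2 had no cluster in any library.

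Per 100 kb of gene length, the repair genes together had 13.5 clusters in WT rep1 and 4.47 in WT rep2, against 5.93 and 1.85 for all protein-coding genes. Relative to that mean of each library, the density was 2.28 times as high in WT rep1 and 2.42 times in WT rep2. The protein-coding mean includes genes without a transcript in HAP1, since the cluster lists do not tell expressed genes from silent ones. In both WT libraries 23 of the 42 genes were above the mean density of protein-coding genes, as were 18.4% of all protein-coding genes, and 12 genes were below it in both. The median density over the WT libraries was 6.11 per 100 kb for the 42 repair genes and 0 for all protein-coding genes. Among genes with a WT cluster the medians were 6.62 for 39 repair genes and 6.14 for 8675 protein-coding genes; a short gene needs a high density to hold any cluster, so these medians do not compare like genes. The clusters were unevenly spread: the 5 genes with the most clusters held 40.7% of the repair clusters in WT rep1 and 45.5% in WT rep2. RAD51B, XRCC5, PRKDC and CHEK1 were among the 5 in both libraries.

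**Figure D1:**
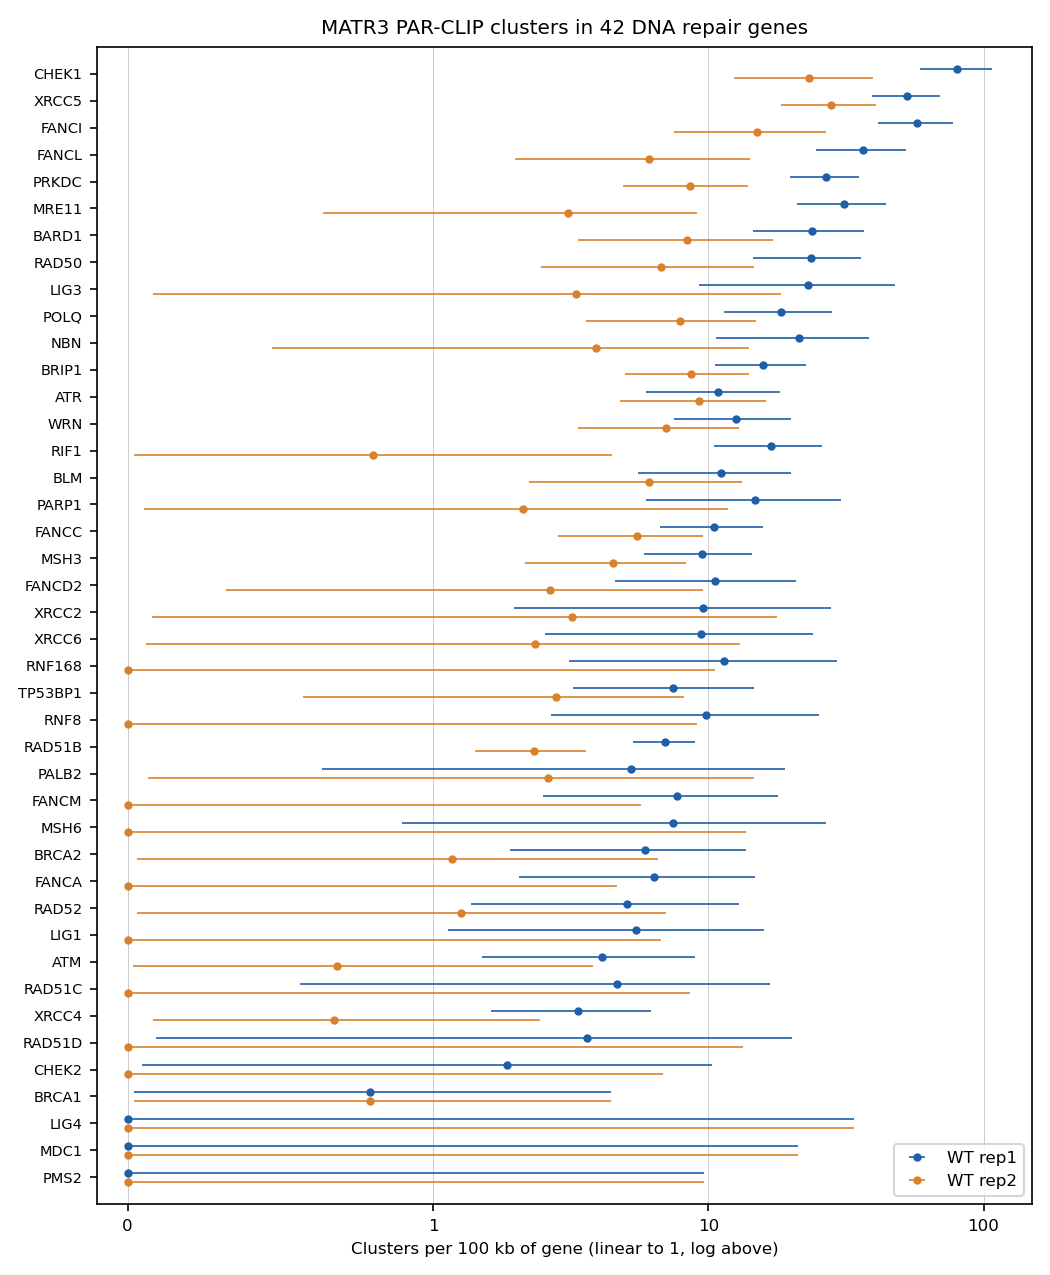
Clusters per 100 kb of gene (x axis, linear up to 1 and logarithmic above) in each of the 42 repair genes, ordered by the WT mean, for WT rep1 (blue) and WT rep2 (orange). Points are single libraries and bars are exact Poisson 95% intervals; CHEK1, XRCC5 and FANCI lie at the top in both libraries, at 80.4, 52.6 and 57.3 in WT rep1.

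CHEK1, XRCC5 and FANCI had the highest densities. CHEK1 had 80.4 clusters per 100 kb in WT rep1 (exact Poisson interval 58.6 to 108) and 23.2 in WT rep2 (12.4 to 39.7). XRCC5 had 52.6 (39.2 to 69.2) and 27.9 (18.4 to 40.5), and FANCI 57.3 (41.3 to 77.5) and 15 (7.49 to 26.9). Relative to the protein-coding mean of the same library, CHEK1 stood at 13.1 ± 0.715 times (SD, n = 2), XRCC5 at 12 ± 4.37 times and FANCI at 8.89 ± 1.1 times. The intervals of these 3 genes overlapped one another in both libraries, so they could not be ordered. FANCL, PRKDC and BARD1 followed at 4.73 ± 2.03, 4.57 ± 0.0802 and 4.26 ± 0.344 times, values close to one another. The 90th percentile of protein-coding genes was 13.9 clusters per 100 kb over the WT libraries, and 8 repair genes lay at or above it: CHEK1, XRCC5, FANCI, FANCL, PRKDC, MRE11, BARD1 and RAD50. CHEK1 alone passed the 99th percentile of 47.7, with a mean of 51.8 ± 40.4 per 100 kb, the SD being set by the sizes of the libraries.

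The break signalling genes had clusters in 11 of 12 genes in WT rep1 and in 8 in WT rep2, with 165 and 41 clusters. CHEK1, the kinase that carries the ATR signal to the cell cycle, had 45 clusters with 1941 reads in WT rep1 and 13 with 709 reads in WT rep2. CHEK2, the kinase that carries the ATM signal, had 1 cluster of 17 reads in WT rep1 and none in WT rep2. The genes are of like length, 56.0 and 54.1 kb, and their intervals per 100 kb did not overlap in either library; in WT rep1 the ratio was 43.5. ATR itself had 14 clusters with 752 reads and 12 with 966 reads. ATM had 6 with 84 reads and 1 with 9 reads. Per 100 kb, ATR was 2.63 times as dense as ATM in WT rep1, with overlapping intervals, and 13.5 times in WT rep2, with intervals apart.

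All 3 genes of the complex that senses and trims break ends had clusters in both WT libraries. The nuclease MRE11 had 30 clusters with 1071 reads in WT rep1 and 3 clusters with 121 reads in WT rep2. RAD50, its ATPase partner, had 21 with 674 reads and 6 with 367 reads, and NBN, which recruits ATM, had 11 with 361 reads and 2 with 26 reads. Of the chromatin factors, RIF1, which limits end resection together with TP53BP1, had 21 clusters with 668 reads in WT rep1 and a single cluster of 42 reads in WT rep2. TP53BP1 had 8 with 144 reads and 3 with 202 reads. The ubiquitin ligases RNF8 and RNF168, which mark chromatin at breaks, had 4 clusters each in WT rep1, with 65 and 78 reads, and none in WT rep2. MDC1, the adaptor that brings RNF8 to breaks, had none; only LIG4 is shorter than its 17.5 kb, and the Poisson interval of its density reaches 21.1 per 100 kb in each WT library.

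In homologous recombination all 10 genes had clusters in WT rep1 and 8 in WT rep2, with 127 and 48 clusters. RAD51B, by far the longest gene at 863 kb, had the most clusters in WT rep1, 60 with 1388 reads, and 20 with 1214 reads in WT rep2. Per length it stood near the protein-coding mean, at 1.21 ± 0.0563 times. Shorter genes of the group had few clusters. RAD51C had 2 with 30 reads and RAD51D 1 with 20 reads in WT rep1, both 0 in WT rep2, and XRCC2 had 3 with 84 reads and 1 with 17 reads. The intervals per length of RAD51B overlapped those of RAD51C and RAD51D in both libraries.

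BRIP1, a helicase that binds BRCA1, had 29 clusters with 997 reads in WT rep1 and 16 with 1343 reads in WT rep2. BARD1, the partner subunit of BRCA1 in its ubiquitin ligase, had 20 with 896 reads and 7 with 290 reads. BRCA1 had only 1 cluster in each library, of 16 and 59 reads, in 126 kb. Per length BARD1 was 29.99 times as dense as BRCA1 in WT rep1, with intervals apart, and 10.5 times in WT rep2, with overlapping intervals. BRCA2, a central mediator of recombination, had 5 clusters with 162 reads and 1 with 36 reads. PALB2, the bridge between BRCA1 and BRCA2, had 2 with 30 reads and 1 with 143 reads, and RAD52, an annealing factor, had 4 with 110 reads and 1 with 61 reads.

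End joining genes had clusters in 5 of 6 genes in each WT library, with 136 and 55 clusters. XRCC5, the larger Ku subunit, had 51 with 1594 reads in WT rep1 and 27 with 1478 reads in WT rep2. XRCC6, the smaller Ku subunit, had 4 with 103 reads and 1 with 14 reads. The density of XRCC5 was 5.62 times that of XRCC6 in WT rep1 and 11.9 times in WT rep2, with intervals apart in both. PRKDC, the kinase that Ku recruits, had 50 clusters with 1737 reads and 16 with 1201 reads. POLQ, the polymerase of the alternative end-joining route, had 21 with 793 reads and 9 with 594 reads. XRCC4, the scaffold of the final ligation, had 10 with 335 reads and 2 with 115 reads in 297 kb, below the protein-coding mean in both libraries. LIG4, its ligase, had none in 10.9 kb.

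Of the Fanconi anaemia genes, all 6 had clusters in WT rep1 and 4 in WT rep2, with 113 and 30 clusters. FANCI had 42 with 2367 reads, of which the cluster of 805 reads made up 34.0%, and 11 with 713 reads in WT rep2. FANCD2, which forms the ubiquitinated pair with FANCI, had 8 with 260 reads and 2 with 142 reads. FANCI was 5.41 times as dense as FANCD2 in WT rep1, with intervals apart, and 5.67 times in WT rep2, with overlapping intervals. FANCL, the ubiquitin ligase that modifies the pair, had 30 with 810 reads and 5 with 104 reads. FANCC, a core complex subunit, had 23 with 582 reads and 12 with 639 reads. The core subunit FANCA and the translocase FANCM had 5 clusters each in WT rep1, with 92 and 75 reads, and none in WT rep2.

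Mismatch repair and the remaining groups had fewer clusters. MSH3, which recognises insertion loops, had 21 clusters with 475 reads and 10 with 320 reads. MSH6, which recognises single mismatches, had 2 with 20 reads in WT rep1 and none in WT rep2. Per length the intervals of the MSH genes overlapped in both libraries. PMS2, an endonuclease of the pathway, had none in 38.2 kb. The RecQ helicases were alike per length: WRN had 18 clusters with 592 reads and 10 with 400 reads, BLM 11 with 255 reads and 6 with 176 reads, a density ratio of 1.14 in WT rep1 and 1.16 in WT rep2 with overlapping intervals. LIG3, a ligase of single-strand break repair, had 7 with 177 reads and 1 with 84 reads. LIG1, the replicative ligase, had 3 with 51 reads in WT rep1 only. PARP1, the sensor of single-strand breaks, had 7 with 116 reads and 1 with 18 reads.

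Clusters were also pooled over each pathway and set against its summed gene length. WT rep1 had 19 clusters per 100 kb in the Fanconi anaemia genes, 18.2 in end joining and 17.4 in break signalling. Its values were 12.8 in ligation and single-strand breaks, 12 in the helicases, 8.13 in homologous recombination and 8.01 in mismatch repair. WT rep2 was highest in end joining at 7.34 and in the helicases at 6.63, and lowest in ligation and single-strand breaks at 1.51. Homologous recombination, the group with the longest total length because of RAD51B, was the second lowest in both. Among 93 further repair genes listed by name, such as the nucleotide and base excision genes, 58 had a cluster in WT rep1, 40 in WT rep2, 38 in both and 2 in KO. Their pooled density was 2.27 times the protein-coding mean in WT rep1 and 2.03 times in WT rep2, close to the values of the 42 genes. The densest of them were APEX1, the base excision endonuclease, which is only 2.54 kb long and had 2 clusters and 0, RAD23B, which binds the damage sensor XPC, with 37 and 7, and BRCC3, a deubiquitinase of the BRCA1-A complex, with 29 and 9.

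**Figure D2:**
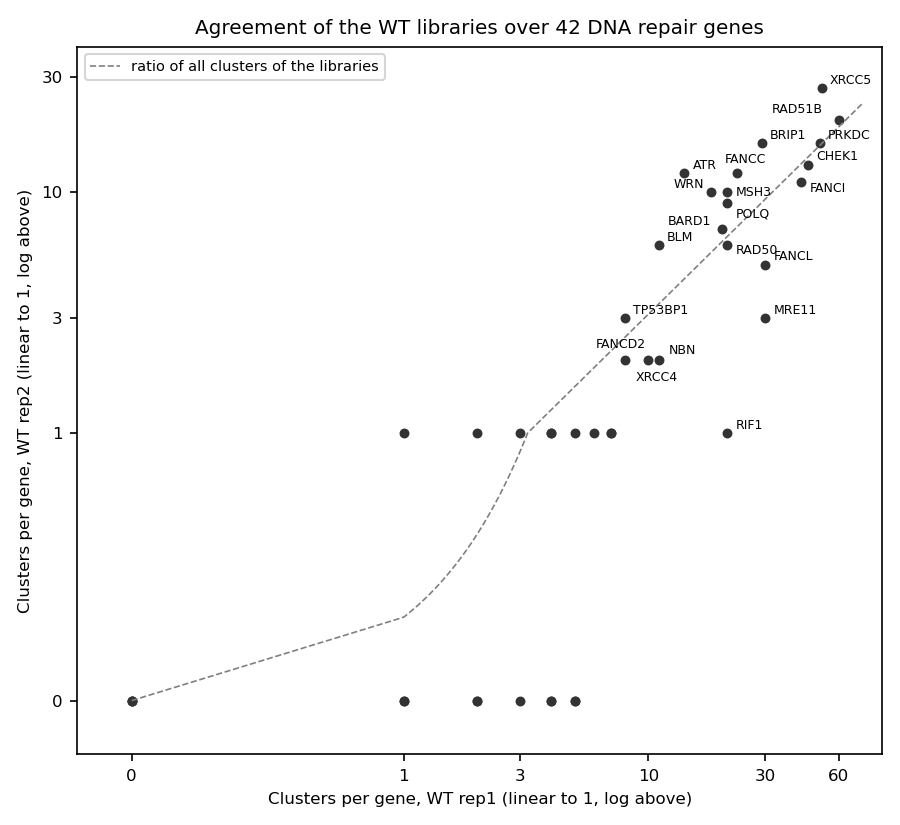
Clusters per gene in WT rep1 (x axis) and WT rep2 (y axis) for the 42 repair genes, both axes linear up to 1 and logarithmic above; points can coincide. The dashed line is the ratio of all clusters of the libraries; RIF1 and MRE11 lie below it and ATR and XRCC5 above it.

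The WT libraries were compared gene by gene. Across the 42 genes, clusters per gene had a Spearman's rho of 0.890 and reads per gene one of 0.860; per length rho was 0.784. The points share their gene lengths and libraries: length alone had a rho of 0.686 with clusters in WT rep1 and 0.720 in WT rep2. Over the 8675 protein-coding genes with a WT cluster, rho for clusters was 0.728. That set leaves out genes without a cluster in either WT library, whereas the 42 genes include 3 of them, so the sets are not alike. Genes are not replicates, and these values are descriptions. Of the repair clusters of both libraries, 24.9% came from WT rep2 (21.9% to 28.0%), as did 23.7% of all clusters. The exact binomial interval of a single gene held this overall share in 36 of 39 genes. It lay above in XRCC5, at 34.6% (24.2% to 46.2%), and ATR, at 46.2% (26.6% to 66.6%), and below in RIF1, at 4.55% (0.115% to 22.8%). MRE11, with 9.09% (1.92% to 24.3%), was low but held it. Among 39 intervals some can miss the overall share by counting error alone, and the misses were not counted over other protein-coding genes. XRCC5, ATR and RIF1 are thus not shown to differ between the libraries beyond such misses.

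Positions were compared next. Of the 202 repair clusters of WT rep2, 48 overlapped a cluster of WT rep1 on the same strand, by 1 nt or more, which is 23.8% (18.4% to 30.1%), against 20.1% (19.6% to 20.6%) over protein-coding genes. In the other direction it was 47 of 610, or 7.70% (5.84% to 10.1%), against 6.22%. The share was 11.3% of 62 clusters with 5 to 19 reads in WT rep2 and 32.0% of 50 with 20 to 49 reads, against 12.7% and 21.3% over protein-coding genes. It was 26.8% of 56 with 50 to 99 reads and 29.4% of 34 with 100 or more, against 21.1% and 30.6%. Each protein-coding share lay within the interval of the repair genes. The 48 pairs lay in 16 genes: XRCC5 had 9, CHEK1, FANCI and PRKDC 5 each and ATR 4, while RAD51B had 1 for its 20 clusters. All 3 clusters of MRE11 and the single cluster of BRCA2 in WT rep2 were found again in WT rep1. A further 14 genes had clusters in both libraries but no overlapping pair. Every pair was intronic in both libraries, as were 97.5% of all repair clusters in WT rep1 and 96.5% in WT rep2. Of the pairs, 31 shared the exact 3′ end, 26 the 5′ end and 16 both. Shared ends were not counted for pairs in other genes, so these numbers stand without a comparison.

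**Figure D3:**
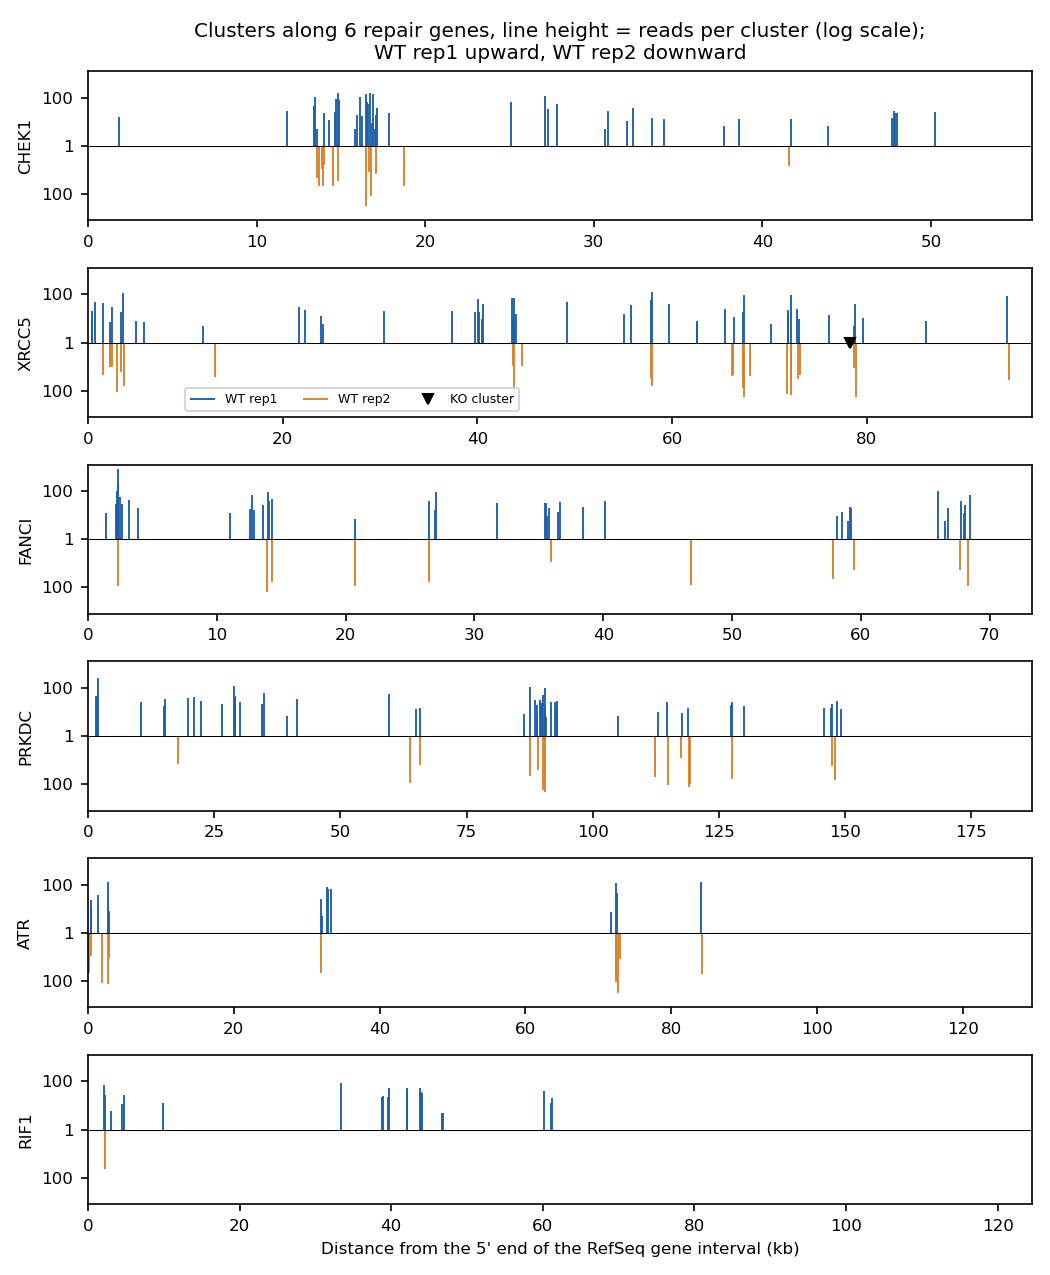
Clusters along 6 repair genes chosen after their values were seen, by distance from the 5′ end of the gene in kb (x axis); line height is reads per cluster on a log scale, upward for WT rep1 and downward for WT rep2. In CHEK1 12 of the 13 clusters of WT rep2 fall where WT rep1 is densest, and the black triangle marks the KO cluster in XRCC5.

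Within CHEK1 the clusters were bunched. The 10 kb stretch of CHEK1 with the most clusters in WT rep1, at chr11:125636927-125646926, lies 11.8 to 21.8 kb from the 5′ end, makes up 17.9% of the gene and held 25 of its 45 clusters. The same stretch held 12 of the 13 clusters of WT rep2, a library that took no part in choosing it (92.3%, exact interval 64.0% to 99.8%). The CHEK1 sequence printed above lies in it. The stretch chosen in the same way held 5 of the 16 WT rep2 clusters of PRKDC (31.3%, 11.0% to 58.7%, in 5.35% of the gene) and 4 of 9 in POLQ (44.4%, 13.7% to 78.8%, in 8.73% of the gene). In XRCC5 it held 3 of 27 (11.1%, 2.35% to 29.2%), with 10.3% of the gene. This stretch, at 37.3 to 47.3 kb, held 11 of the 51 WT rep1 clusters. The densest 10 kb of XRCC5 within WT rep2 itself held 11 of its 27 clusters, which ran from 66.1 to 73.1 kb. Clusters of WT rep1 also lay in that part, from 65.4 to 72.99 kb. The part was picked from the counts of WT rep2 itself, so it does not test the agreement of the libraries. In ATR the stretch chosen in WT rep1 held 1 of 12 (8.33%, 0.211% to 38.5%), with 7.72% of the gene. The choice in ATR was a tie. As many WT rep1 clusters lay 0.42 to 2.89 kb from its 5′ end, where WT rep2 had several, at 0.148 to 2.89 kb. The value for ATR thus depends on which of these stretches is taken.

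**Figure D4:**
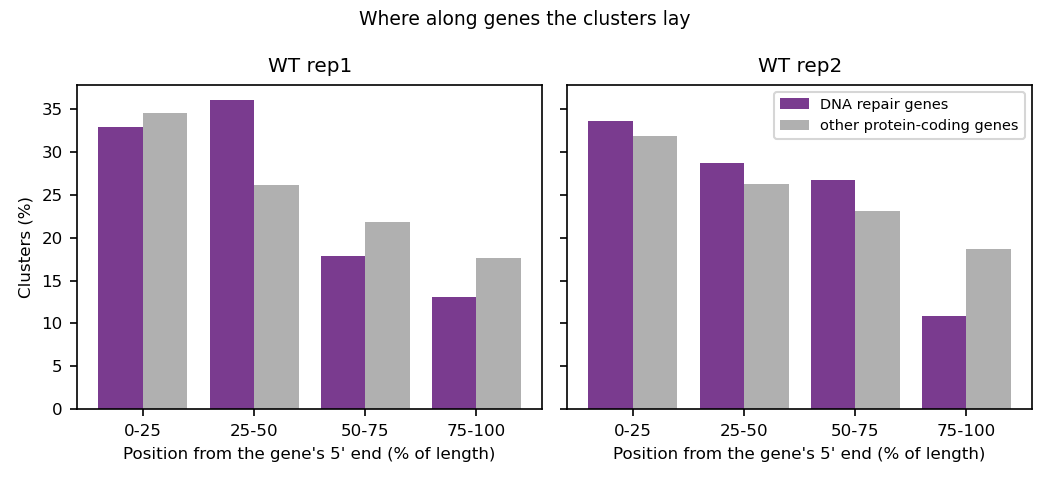
Share of clusters in % (y axis, from 0) in each successive 25% of the gene from its 5′ end (x axis), for repair genes (purple) and other protein-coding genes (grey), in WT rep1 (left) and WT rep2 (right). The last 25% held 13.1% and 10.9% of the repair clusters and 17.6% and 18.7% of the others.

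Along the genes, clusters were more frequent towards the 5′ end. The first 50% of the gene held 69.0% of repair clusters in WT rep1 (65.2% to 72.6%), against 60.6% (60.3% to 61.0%) in other protein-coding genes. In WT rep2 it held 62.4% (55.5% to 68.8%) against 58.2% (57.5% to 58.8%), a difference within the interval. These intervals take clusters as independent, although many share a gene: RAD51B alone had 60 of the 610 in WT rep1. Whether the contrast in WT rep1 rests on a few genes was not tested. Of the repair genes with at least 5 clusters, more than 50% of clusters lay there in 22 of 27 genes in WT rep1 and 10 of 15 in WT rep2. The same count was not made for other protein-coding genes, whose pooled clusters also lay mostly in the first 50%. RIF1 had all 21 clusters of WT rep1 in its first 50%, and RAD51B had 80.0% in each WT library. In MSH3 it was 85.7% and 70.0%, in FANCC 82.6% and 75%. In other genes the share was lower in at least 1 library. XRCC5 had 52.9% and 40.7% in its first 50%, BARD1 65.0% in WT rep1 and 28.6% in WT rep2, and PRKDC 37 of 50 and 8 of 16 clusters. BRCA2 had 1 of 5 clusters and ATM 2 of 6 there in WT rep1.

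Nearly all repair clusters were intronic. The authors' annotation gave 595 of 610 as intronic in WT rep1 (97.5%, 96.0% to 98.5%) and 195 of 202 in WT rep2 (96.5%, 93.0% to 98.3%), with a WT mean of 97.0% ± 0.712 (SD, n = 2). Over protein-coding genes the shares were 94.9% and 93.6%. Clusters in 3′ UTRs numbered 10 in 7 genes in WT rep1 (1.64%, against 3.32% over protein-coding genes) and 4 in 4 genes in WT rep2 (1.98%, against 4.71%). LIG3 had 3 of them in WT rep1, with 72, 37 and 23 reads, and 1 in WT rep2, with 84 reads, of which 25% carried a T-to-C change. Another in TP53BP1 in WT rep2 had 99 reads, with a change in 2.02% of them. Coding clusters were found in PRKDC (25 reads), RIF1 (89) and XRCC5 (30, of which 6.67% carried a change) in WT rep1, and in CHEK1 (47), POLQ (51) and XRCC5 (61) in WT rep2. No cluster outside introns was found at the same place in the other WT library. Over all clusters of protein-coding genes, that was so for only 6.22% in WT rep1 and 20.1% in WT rep2. The share was not counted for clusters outside introns alone. With so few of them in repair genes, the lack of overlap says nothing about exonic sites.

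The clusters of repair genes were close to those of other genes in sequence and conversion. Of T events in repair clusters, 7.79% were converted in WT rep1, 7.46% in WT rep2 and 4.86% in the 2 KO clusters, against 7.98%, 7.55% and 9.04% over all clusters; the WT mean was 7.63% ± 0.229 (SD, n = 2). The median repair cluster had 22.5 reads in WT rep1 and 43 in WT rep2, against 20 and 39 over all clusters. The median share of reads with a change was 92.9% and 97.3%, against 94.1% and 97.5% over all clusters. Fewer than 50% of reads were changed in 22 of 610, 7 of 202 and 1 of 2 repair clusters, a count not made over all clusters. T made up 41.5% and 43.5% of bases in the WT libraries, against 40.4% and 42.1% in intronic clusters of other protein-coding genes. A run of at least 8 C or T was present in 57.9% (53.9% to 61.7%) and 59.4% (52.5% to 65.9%) of repair clusters, against 55.3% and 55.6% there, and in 22.9% of the intronic KO clusters of protein-coding genes. The pentamer TTCTT, searched on the RNA strand, was present in 32.3% (28.7% to 36.1%) and 36.6% (30.3% to 43.5%), against 30.6% and 32.0%, and in 11.5% of those KO clusters. The last base was G, after which RNase T1 cuts, in 74.6% and 94.1%, against 73.9% and 94.6%. This share differed more between the WT libraries than between repair genes and other genes of the same library.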

How the data were processed

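PAR-CLIP libraries of 2 WT samples and 1 KO sample of HAP1 cells were compared. Clusters were called by the authors in each library separately. Each deposited cluster has whole-number counts of reads, distinct reads, converted positions and converted and unconverted T events, not normalised, and the deposited fraction columns give the share of its reads with a T-to-C change or a final G. Further deposited score columns were not used. The submitters' processing notes name cutadapt 1.8.3, Bowtie 1.1.2, hg38 and GRCh38.p5; the cluster caller and its filters are not given in the sources used here. No cluster had fewer than 5 reads or 2 converted positions. The tables hold reads in called clusters only, so sequencing depth is unknown, and a missing gene may have clusters below that minimum. Each cluster has 1 gene, so overlapping genes are uncertain. HAP1 markers could not be checked, since clusters are not expression levels.

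The genes, role lists and tests were chosen with earlier results of these data known. Named with values are all genes with a WT cluster; shown are, per role list and over all, the strongest WT pairs that overlap, by the geometric mean of their reads, and all KO clusters. A further CHEK1 pair is not reported here. The further repair genes named are the 3 with the most clusters per kb. Gene lengths are RefSeq gene intervals (GRCh38.p14), used for names, lengths and positions. Positions are those of the cluster on its own strand. Names matched RefSeq for 8688 of 9189 genes in WT rep1, 5815 of 6043 in WT rep2 and 600 of 619 in KO. Shares have 95% Wilson intervals, single genes exact binomial or Poisson ones. The genotypes were not tested against each other, since KO has 1 library, and nothing in the labels says the WT replicates came from separate cultures. The counting steps were tested on simulated data. Python 3.11.15, numpy 2.4.6, pandas 2.3.3 and scipy 1.17.1 were used.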

Additional observations from a re-analysis of the deposited data

How the results depend on the processing

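Values that moved by more than the replicate spread or the counting interval (counts by over 1.5 times) numbered 11 and are given here. Adding gene synonyms or any annotation source changed no value. With at least 3 converted positions per cluster, 17 repair genes had clusters in both WT libraries in place of 30, their share of clusters was 0.814% in place of 0.722%, the intronic share 97.8% in place of 97.0%, rho 0.80 in place of 0.890 and T-to-C conversion 7.31% in place of 7.63%. With WT rep1 limited to as many clusters as WT rep2, these were 0.759% of clusters and 7.33% conversion, and 11.9% of the WT rep2 clusters overlapped WT rep1 in place of 23.8%, a search among fewer clusters. Counting gaps of up to 100 nt as shared gave 45.0%. Without RAD51B the share of clusters was 0.650%. Over all 42 genes, rho per length was 0.784 in place of 0.890. The cause of the other moves was not tested. CHEK1, XRCC5 and FANCI were the 3 densest genes under each setting tried. Leaving out either WT replicate gave 30 to 39 genes with a cluster, 0.699% to 0.744% of clusters, 96.5% to 97.5% intronic, 7.46% to 7.79% conversion, 41.5% to 43.5% T, and a median of 2.48 to 9.69 clusters per 100 kb, against 6.11 with both; with 2 libraries such a mean cannot move by more than their SD, so this range says nothing of stability. No paired analysis was possible because KO has 1 library and the genotypes share fewer than 2 replicate numbers. Densities by intron length were not run, since no exon annotation was used here. With 842 KO clusters, the depth limits any statement on a single repair gene in KO.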
